A study of Oryza sativa with 20 samples.

Results

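The comparison described here is between rice seedlings chilled for 24 hours and rice seedlings chilled for 12 hours. It was made feature by feature on a cDNA microarray, to see which responses present at 12 hours persisted, faded or began by 24 hours. The table holds 20 columns from 10 slides, and the 8 columns from 4 slides that belong to these times were used. Of 6080 features, 5992 had a value in all 4 biological samples, and every comparison was made over these.

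The seedlings, at the S3 stage, were all of the japonica cultivar CT6748-8-CA-17, which tolerates chilling. Total RNA was extracted from their frozen shoots, as the study states. The 24H group held 2 biological replicates kept for 24 hours at 10°C, and the 12H group held 2 biological replicates kept for 12 hours at 10°C. Each chilled sample was hybridised together with control seedlings kept for the same time at 29°C, and both chambers had continuous light. Chilled RNA carried the dye Cy3 and control RNA the dye Cy5 on every slide, without a dye swap. Every feature was spotted in duplicate.

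A value is therefore the log2 ratio of chilled over control RNA, with the median of its column set to 0. A difference of 1 between times means that the ratio was 2-fold higher at 24 hours. A dye effect that is common to all slides cancels in the difference between times, but it remains part of the ratio at each time. A difference may lie in the chilled or in the control seedlings, and the ratios cannot tell these apart. Fewer cells of a type and less RNA per cell cannot be told apart either. Ratios carry no levels, so markers of the labelled tissue could not be checked.

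Rice comes from warm climates, and chilling slows its membrane transport, photosynthesis and enzyme reactions while light continues to be absorbed. Plants answer low temperature in waves, with signalling kinases and transcription factors ahead of the genes for protective proteins, sugars and antioxidants. In many plants the circadian clock gates such responses, and its own transcripts follow the hour of the day as well as the temperature.

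No feature passed the test for a difference between the times. Under limma's moderated test with Benjamini-Hochberg adjustment over all 5992 features, 0 were called at an adjusted p of 0.05, which is 0% of those tested, and the lowest adjusted p was 0.122. Without adjustment 143 features (2.39%) stood higher and 80 (1.34%) stood lower at a p of 0.05. Tested against 0 within each time, 0 features (0%) were called at 24 hours and 3 (0.0501%) at 12 hours. Those 3 were lower in chilled seedlings and had no gene listed. Leaving out a 12H replicate gave extreme differences between the times on some features. They were 18.03 on feature 379 and 15.99 on feature 4933 without replicate 1, and 17.26 on feature 2277 without replicate 2. On feature 373 the direction turned, with -4.17 without replicate 1 and 3.67 without replicate 2. The calls within a time depended on the fit. Where duplicate spots entered singly, grouped by biological sample as a random effect, they were 158 at 24 hours and 173 at 12 hours. With all 10 biological samples in the fit they were 64 at 24 hours and 7 at 12 hours. A replicate block, which the labels do not establish, gave 318 at 24 hours and 180 at 12 hours. Between the times that block called 3 features higher and 1 lower. Genes are therefore described below by their values, with the spread between the biological replicates.

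The spread between replicates was wide. Over all features the 24H samples correlated at a Pearson's r of 0.417 with each other, and the 12H samples at 0.376. Across the times, samples that carry the same replicate number correlated at 0.493 and 0.435, which is above both values. The median SD between replicates was 0.31 at 24 hours and 0.24 at 12 hours on the log2 scale. The columns had median log2 ratios of 0.02 to 0.18 before centring at 24 hours and 0.06 to 0.14 at 12 hours, and the difference between times of all features had a median of -0.02.

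By the 1.8-fold cut-off that the study uses, features were sorted by the time or times at which their mean ratio met it. Spread between replicates alone also moves features across a cut-off, and its part in the classes was not tested. The names given to the classes below describe the cut-off only. The mean ratio was at or above 1.8-fold in 582 features (9.71%) at 24 hours and in 452 features (7.54%) at 12 hours. Of these, 209 features met it at both times and form the persisting class, 243 met it at 12 hours only and form the fading class, and 373 met it at 24 hours only and form the beginning class. On the opposite side, 54 features were at or below the same fold in the negative direction at both times, 94 at 12 hours only and 91 at 24 hours only. When each sample was left out in turn these counts ranged over 27 to 90, 58 to 234 and 51 to 363, the last reached without 24H replicate 2. The sizes of the classes hung on single samples: the persisting class held 135 features without 12H replicate 1, the fading class 452 without 12H replicate 2, and the beginning class 593 without 24H replicate 2.

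**Figure D1:**
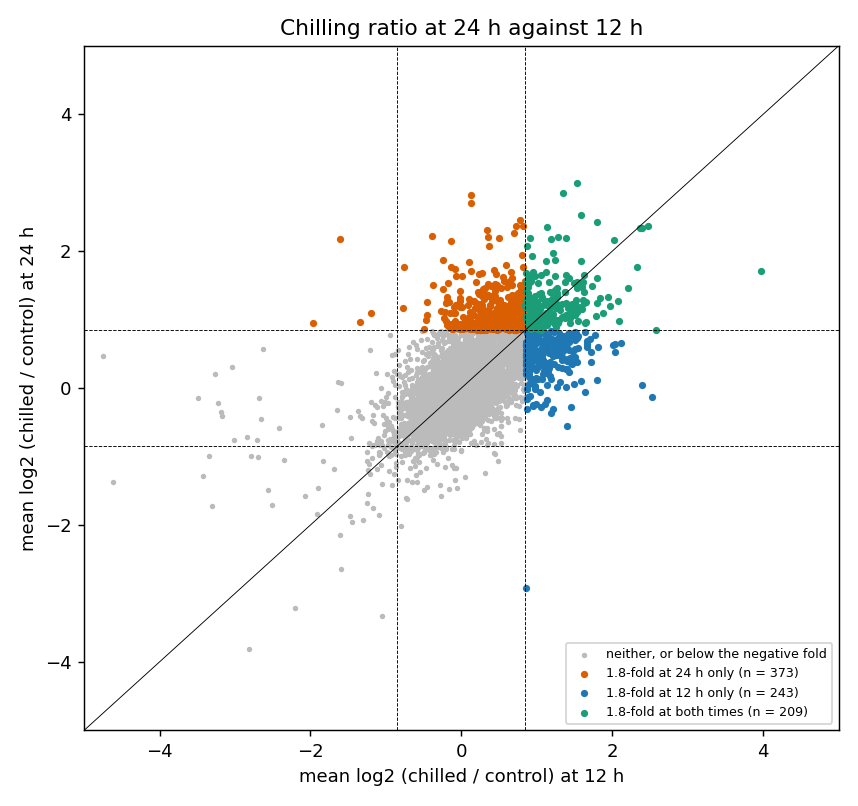
Mean log2 ratio of chilled over control RNA at 24 hours (vertical axis) against 12 hours (horizontal axis), 1 point per feature, with dashed lines at 1.8-fold in each direction, a solid line of equal ratio and 5 features outside the range drawn. The 373 features of the beginning class lie above the upper dashed line and left of the right one, the 243 of the fading class lie right of it and below, and the 209 of the persisting class fill the upper right corner.

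The ratios on the other side of the cut-off were as follows. Among the fading features the median of the mean ratios was 0.51 at 24 hours against 1.08 at 12 hours, and 222 of the 243 were above 0 at 24 hours, beside 3144 of all 5992 features. Among the beginning features it was 1.04 at 24 hours against 0.40 at 12 hours, and 317 of the 373 were above 0 at 12 hours, beside 3127 of all 5992. The persisting features had nearly the same median at both times, 1.18 at 24 hours and 1.15 at 12 hours, and 102 of the 209 stood lower at 24 hours. These medians follow in part from how the classes are cut.

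A stricter rule asked for a mean difference of 1.8-fold or more between the times, with both 24H samples on the same side of both 12H samples. It was met by 196 features (3.27%) that stood higher at 24 hours and 112 (1.87%) that stood lower. Non-overlap at any size was found in 1004 features (16.8%) higher and 1062 (17.7%) lower. Of the 243 fading features, 54 met the stricter rule, 20 of them with a gene name or an annotation in the study's gene list. Of the 373 beginning features, 104 met it, 9 of them named. A name or annotation was at hand for 777 of the 5992 features.

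The differences were repeated between replicate numbers only in part. Of 588 features that stood 1.8-fold higher at 24 hours in the samples numbered 1, 413 were also higher in the samples numbered 2, against 53.4% of all features, and 13.9% met the fold there, against 5.27% of all. Of 522 that stood 1.8-fold lower in the samples numbered 1, 60.5% were lower in the samples numbered 2, against 46.6% of all. In the opposite direction of choice, 59.8% of 316 higher features kept their sign, against 45.1% of all. For the 175 lower features chosen in the samples numbered 2 the share was 51.4%, below the 54.9% of all features. Over all features the difference in the samples numbered 1 and that in the samples numbered 2 correlated at a Pearson's r of 0.126 across features, which are not independent replicates.

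**Figure D2:**
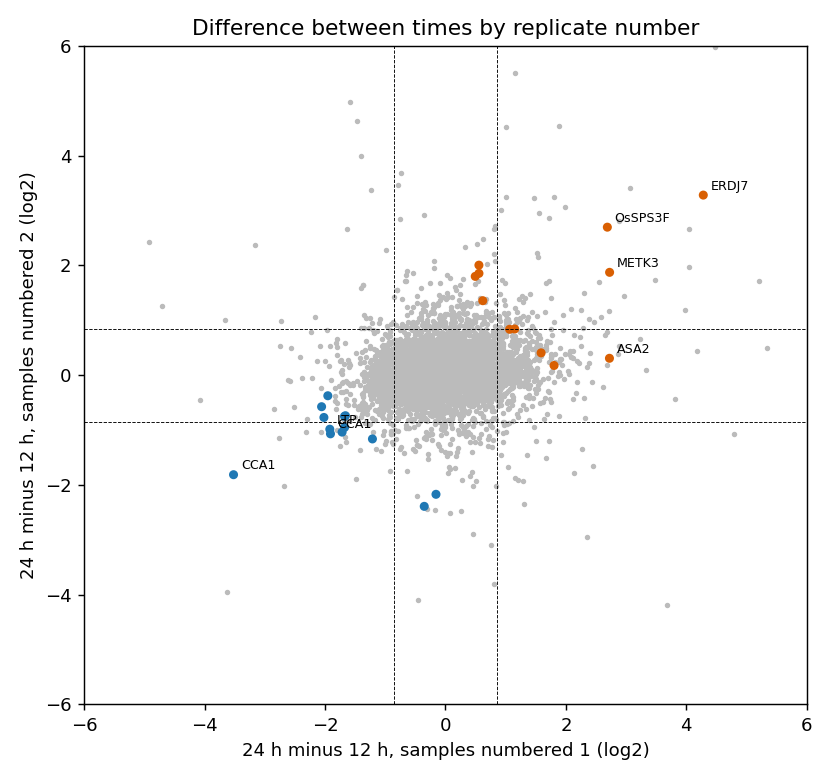
Difference in log2 ratio, 24 hours minus 12 hours, in the samples numbered 2 (vertical axis) against those numbered 1 (horizontal axis), 1 point per feature, with dashed lines at 1.8-fold and 8 features outside the range drawn. Orange points are the named genes that stood higher at 24 hours and blue points those that stood lower. The grey cloud shows little common slope, and the named genes lie in the upper right and lower left by choice.

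Among named genes whose samples did not overlap, the largest negative difference was that of a clock gene. CCA1, a Myb transcription factor of the morning loop of the plant circadian clock, was measured by a pair of features. On feature 3095 its log2 ratio was -0.81 and 0.54 at 24 hours, against 2.71 and 2.35 at 12 hours. The mean was -0.13 ± 0.95 at 24 hours and 2.53 ± 0.25 at 12 hours (SD, n = 2 each), so the gene stood 5.79-fold above its control at 12 hours and near its control at 24 hours. The difference was -2.67 with a standard error of 0.50 and a 95% interval of -3.92 to -1.42. On feature 3827 the ratio was 0.03 and 0.17 at 24 hours, against 1.94 and 1.24 at 12 hours, a difference of -1.49 with a standard error of 0.36. The samples of the times were well apart on both features, yet limma's adjusted p was 0.934 for each, as it was for every gene that leads either direction.

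Other clock and light genes had smaller differences. PRR95, a pseudo-response regulator of the clock, had ratios of 0.44 and 0.81 at 24 hours, against 0.39 and 0.93 at 12 hours. PRR73, of the same family, had 1.31 and -0.21 at 24 hours, against 0.03 and -0.38 at 12 hours. XCT, a homolog of a clock regulator of Arabidopsis, had 0.53 and 0.57 at 24 hours, against -0.02 and -0.01 at 12 hours. It was the one gene of the group whose samples stood higher at 24 hours without overlap. The red-light receptor PHYA stood at -0.33 and -0.47 at 24 hours, against 0.28 and 0.08 at 12 hours, while PhyB overlapped between the times with a difference of 0.19. The blue-light receptor PHOT2 and the pair of features for the heading-date gene Ehd3 overlapped as well, with differences of -0.43, -0.60 and 0.33. Over the 10 features of 8 genes in the clock list, 6 stood lower, 0 were called, and the median difference was -0.23.

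Genes at the entry of the phenylpropanoid pathway stood lower at 24 hours. Phenylalanine ammonia lyase starts the pathway to lignin and flavonoids. The PAL feature had ratios of -0.49 and 0.00 at 24 hours, against 1.17 and 0.74 at 12 hours, a difference of -1.20 with a standard error of 0.35. A further phenylalanine ammonia lyase gene, LOC4336415, had -0.36 and -0.17 at 24 hours, against 1.32 and 0.58 at 12 hours, and a difference of -1.21 with a standard error of 0.37. These genes are close copies of each other, and cDNA spots can share signal between such copies. Os4CL3, the 4-coumarate:CoA ligase that follows in the pathway, stood at -1.91 and -1.25 at 24 hours, against 0.15 and -0.67 at 12 hours. It lay below its control at 24 hours, whereas the lyases were near theirs. HCT1, a hydroxycinnamoyl transferase, had a mean of -1.62 at 24 hours and -0.72 at 12 hours. The cinnamyl alcohol dehydrogenases CAD6 and CAD1 at the end of the path to lignin differed by -0.07 and -0.04, and the ligase Os4CL4 by 0.19. Of the 7 features in the list 6 stood lower, beside 3094 of 5992 over all features, 4 met the stricter 1.8-fold rule as lower, beside the 1.87% of all features, and 0 were called. The median difference was -0.90, which lay between -1.31 and -0.47 when each sample was left out in turn. The list was drawn with earlier results of these data known. Both lyase features also belong to the study's early-response list, which was chosen on these samples. The counts are therefore no independent evidence of a change in the pathway.

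Genes of hormone signalling that were above control at 12 hours were near control at 24 hours in part. The Aux/IAA proteins repress auxin response and are themselves induced by auxin. IAA30 had ratios of 0.62 and -0.05 at 24 hours, against 1.95 and 0.83 at 12 hours. IAA3, the auxin-induced gene that the study names, had 0.37 and 0.22 at 24 hours, against 2.02 and 0.65 at 12 hours, and IAA17 had -0.07 and -0.29 at 24 hours, against 1.26 and 0.34 at 12 hours. The samples did not overlap in any of the 3 genes, with differences of -1.10, -1.04 and -0.98 and standard errors of 0.48, 0.50 and 0.40. IAA19, in contrast, stayed above 1.8-fold in all 4 samples, with 1.48 and 0.88 at 24 hours and 1.69 and 1.34 at 12 hours. Of 9 Aux/IAA features 8 stood lower at 24 hours, with a median difference of -0.33. Auxin response factors and GH3 conjugating enzymes lay on either side of 0, at -0.40 to 0.52, and over the 17 features of the auxin list the median difference was -0.24 with 0 called.

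JAZ proteins hold jasmonate response in check until the hormone arrives. JAZ6 had ratios of 0.27 and -0.24 at 24 hours, against 0.62 and 2.16 at 12 hours, and JAZ7 had -0.29 and 0.04 at 24 hours, against 0.49 and 1.06 at 12 hours. Their differences were -1.37 with a standard error of 0.56 and -0.90 with a standard error of 0.35. JAZ3 persisted by its means, 1.40 at 24 hours and 1.37 at 12 hours, although its replicates were far apart at both times. JAZ1 was below control throughout, with a mean of -0.84 at 24 hours and -1.18 at 12 hours. NINJA1, the adaptor between JAZ proteins and their corepressor, and the receptor gene COI2 on 1 of its features reached the 1.8-fold cut-off at 24 hours only, with differences of 0.21 and 0.40 and overlapping samples. The jasmonate list as a whole had a median difference of -0.01 over 11 features, 0 called, and its sign turned to 0.02 with the columns as deposited.

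Transport and photosynthesis genes were among the largest negative differences. PIP1-3, a water channel of the plasma membrane, stood at -1.13 and -0.11 at 24 hours, against 0.89 and 0.67 at 12 hours, a difference of -1.40 with a standard error of 0.42. PIP1-1 stood at -0.58 and 0.10 at 24 hours, against 1.08 and 0.38 at 12 hours. The water channels PIP2-2 and NIP2-2 differed by -0.03, 0.05 and 0.24 over 3 features, and the aquaporin list of 7 features had a median of -0.18, which was -0.56 without 12H replicate 2. The chlorophyll a/b binding protein gene RCABP69 stood at -0.97 and -0.93 at 24 hours, against 0.75 and 0.11 at 12 hours. Its replicates were close together at 24 hours, with an SD of 0.03, and the difference was -1.38 with a standard error of 0.34. RBCS, the small subunit of Rubisco, had -0.28 and -0.89 at 24 hours, against 0.59 and 0.02 at 12 hours. EX1, a plastid protein that in Arabidopsis relays singlet oxygen signals, stood at -0.19 and 0.62 at 24 hours, against 0.98 and 1.26 at 12 hours. Chlorophyll synthesis was below control at both times for PORB, with means of -1.34 at 24 hours and -0.72 at 12 hours, and for CHLG, with means of -0.90 at 24 hours and -0.74 at 12 hours. In the photosynthesis and chlorophyll list 11 of 14 features stood lower and 0 were called, with a median of -0.26, which was -0.55 without 12H replicate 2.

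Carbon metabolism showed both signs. CFBP1, the cytosolic fructose-1,6-bisphosphatase on the route to sucrose, stood at -1.76 and -1.20 at 24 hours, against -0.08 and -0.25 at 12 hours, a difference of -1.31 with a standard error of 0.33. OsSPS3F, a sucrose phosphate synthase of the same route, stood at 1.67 and 3.96 at 24 hours, against -1.02 and 1.27 at 12 hours. Its difference of 2.69 had a standard error of 1.004, and its duplicate spots disagreed: the first spot gave a difference of 0.70 and the second 4.69, and without spots beyond 5 in size it was 1.72, a setting added after the data were seen. SUS1, a sucrose synthase that splits sucrose, overlapped between the times, with a difference of -1.02 and a standard error of 0.90. In the sugar and starch list 17 of 25 features stood lower, 0 were called, and the median was -0.23.

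Glycolysis genes held both fading and persisting responses. A cytosolic pyruvate kinase, LOC4337406, had ratios of 0.72 and 0.11 at 24 hours, against 1.91 and 0.93 at 12 hours. The enolase Eno1 on feature 3877 had 0.37 and 0.43 at 24 hours, against 0.94 and 1.24 at 12 hours. On its other feature, 3047, it persisted, with 1.91 and 0.71 at 24 hours, against 2.66 and 1.02 at 12 hours and overlapping samples. The phosphoglucose isomerase PGI-A on feature 1484 had 1.24 and 0.40 at 24 hours, against 1.57 and 1.44 at 12 hours. In this list 7 of 23 features faded by the 1.8-fold rule, 3 persisted and 0 began, beside 243 fading and 209 persisting over all features and 76 and 46 over the named ones. The median difference was -0.32, with 17 features lower and 0 called, and it lay between -0.48 and -0.16 when each sample was left out in turn. For the pyruvate decarboxylases of fermentation, which share the name PDC, the difference was -0.74 on the feature of LOC4332519, and -0.51 and 0.11 on the features of LOC4339066.

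The remaining genes that lead the negative differences came from several lists. NPR4, of the defence list and a relative of the salicylic acid receptor NPR1, stood at 0.66 and 0.39 at 24 hours, against 1.87 and 1.56 at 12 hours. Its replicates lay close together at both times, and it remained above its control at 24 hours in both samples. The difference was -1.19 with a standard error of 0.31 and a 95% interval of -1.96 to -0.42. The lipid transfer protein gene LTP stood at 1.06 and 0.26 at 24 hours, against 2.99 and 1.25 at 12 hours, a difference of -1.45 with a standard error of 0.64. A phospholipid transfer protein homolog, LOC4350386, had -0.55 and -0.05 at 24 hours, against 1.40 and 0.33 at 12 hours. The non-symbiotic hemoglobin gene NSHB2, whose protein scavenges nitric oxide, had -0.02 and -1.59 at 24 hours, against 0.13 and 0.58 at 12 hours on feature 4218. On its other feature, 5259, the samples overlapped, with a difference of -0.36.

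**Figure D3:**
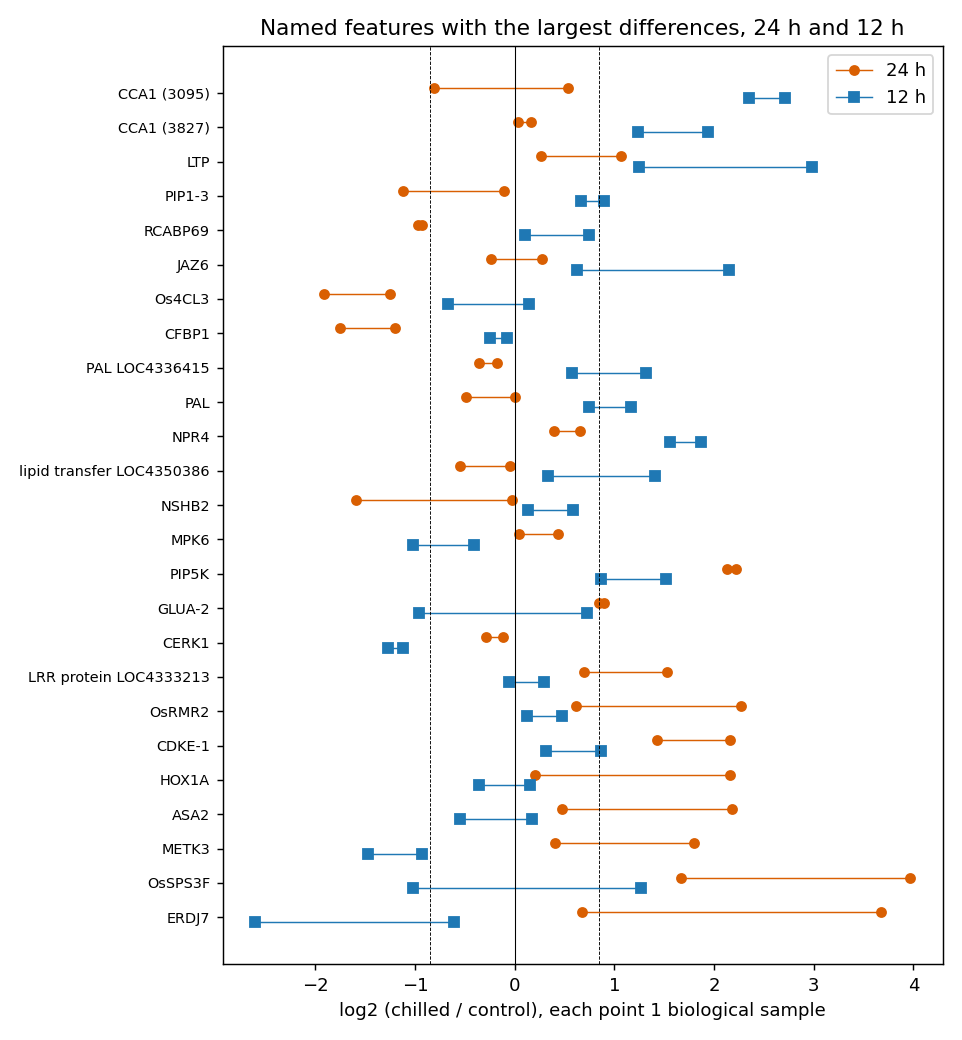
Log2 ratio of chilled over control RNA (horizontal axis) in each biological sample for the 12 named genes with the largest negative differences, CCA1 on 2 features, and the 12 with the largest positive differences, chosen among named genes whose samples do not overlap. Orange circles are the 24H samples and blue squares the 12H samples, a line joins the 2 replicates of a time, and dashed lines mark 1.8-fold. The replicates are widest apart for ERDJ7 at 24 hours (SD 2.12) and closest for RCABP69 at 24 hours (SD 0.03).

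The genes that lead the positive differences rested on less even measurements. The widest gap between duplicate spots of a slide had a median of 1.29 over the 12 named genes that stood higher, and exceeded 1 in 6 of the 11 that could be compared. Over the named features that stood lower it had a median of 0.38 and exceeded 1 in 1 of 13, and over all features the median was 0.48. Among all features that met the stricter rule, the gap exceeded 1 in 102 of 196 higher and 25 of 112 lower. The part of such gaps in the differences was tested only by taking each spot set alone. These values are given in the text for some of the genes only.

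ERDJ7, a DnaJ co-chaperone of the endoplasmic reticulum, had the largest positive difference among them, 3.78 with a standard error of 1.11. Its ratio on feature 4861 was 3.68 and 0.68 at 24 hours, against -0.61 and -2.60 at 12 hours. Only 4 of its 8 spots carried a value. Both 24H values came from the second spot of the slide and both 12H values from the first, so time and spot cannot be told apart. Its other feature, 107, is complete and gave no such difference, with spots of 0.26 to 0.55 at 24 hours and 0.32 to 0.97 at 12 hours.

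METK3, an S-adenosylmethionine synthase that makes the methyl donor of the cell, stood at 1.798 and 0.404 at 24 hours, against -0.93 and -1.47 at 12 hours. The difference was 2.30 with a standard error of 0.53, but the first spots of its 24H slides read 0.02 and -0.88 where the second read 3.58 and 1.69. SAM2, of the same enzyme family, pointed the other way, with -0.54 and -0.40 at 24 hours, against 0.53 and 0.19 at 12 hours. SAM1 differed by 0.13 and 0.51 on its features. The methionine list of 7 features held 3 that stood lower and 0 called, with a median of 0.02.

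ASA2, the catalytic subunit of anthranilate synthase that opens tryptophan synthesis, stood at 2.18 and 0.48 at 24 hours, against -0.55 and 0.17 at 12 hours. Its spots agreed within 0.27, and the difference of 1.51 had a standard error of 0.62, so its spread lay between the replicates. Spots agreed for CERK1, the receptor kinase for chitin, as well. It stood at -0.12 and -0.28 at 24 hours, against -1.27 and -1.12 at 12 hours, so its ratio was below control at 12 hours and close to it at 24 hours. The difference of 0.995 had a standard error of 0.29 and was 0.97 and 1.02 on the spots taken alone. The MAP kinase MPK6 stood at 0.04 and 0.43 at 24 hours, against -1.02 and -0.40 at 12 hours, with 0.74 and 1.16 on the spots alone.

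PIP5K, a lipid kinase that makes phosphatidylinositol bisphosphate, both persisted and stood higher at 24 hours. Its ratio was 2.13 and 2.22 at 24 hours, against 1.51 and 0.87 at 12 hours, a difference of 0.99 with a standard error of 0.35. The first spot gave 1.67 and the second 0.31. CDKE-1, the kinase of the Mediator complex, stood at 1.43 and 2.17 at 24 hours, against 0.87 and 0.31 at 12 hours, and its spots gave 2.02 and 0.40. HOX1A, a homeodomain transcription factor, and OsRMR2, a sorting receptor of storage vacuoles, were lifted in 1 of the 24H samples, with 0.20 and 2.16 at 24 hours for HOX1A, against -0.35 and 0.16 at 12 hours, and 0.62 and 2.27 at 24 hours for OsRMR2, against 0.12 and 0.47 at 12 hours. In each a single spot of that slide stood far above its duplicate, 3.88 beside 0.44 for HOX1A and 3.55 beside 0.99 for OsRMR2. The seed storage glutelin GLUA-2 and a leucine-rich repeat protein, LOC4333213, closed the group with differences of 0.989 and 0.997. The spots of the repeat protein agreed, and its ratio was 1.53 and 0.70 at 24 hours, against -0.06 and 0.29 at 12 hours. In the list of kinases, phosphatases and calcium proteins 26 of 55 features stood lower and 0 were called, with 4 meeting the stricter rule as higher, beside the 3.27% of all features, and a median difference of 0.03.

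At or above 1.8-fold in all 4 samples were 37 features, 7 of them named. In both replicates of a time the cut-off was met by 203 features at 24 hours and 141 at 12 hours. A dye effect common to all slides remains part of these ratios. PIP5K and IAA19 are given above. Ferritin, the iron store of the plastid, had 1.81 and 1.40 at 24 hours, against 1.38 and 1.47 at 12 hours, and NADH-glutamate synthase, which assimilates ammonium, had 1.90 and 1.36 at 24 hours, against 1.495 and 0.994 at 12 hours. The ferritin gene is on chromosome 12 in the reference while the study's list gives the locus Os11g01530, and these chromosomes carry near-identical copies that can share signal. TBP-2, a TATA-binding protein, had 1.49 and 1.01 at 24 hours, against 1.38 and 1.10 at 12 hours. The plastid gene-expression factor wsl3 had 1.48 and 0.96 at 24 hours, against 1.34 and 1.51 at 12 hours, and SCS-beta, a succinyl-CoA ligase subunit of the citric acid cycle, had 1.04 and 0.89 at 24 hours, against 2.03 and 1.27 at 12 hours. The intervals of the differences were wide even here, from -0.59 to 0.96 for ferritin and from -0.81 to 0.83 for TBP-2.

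Regulators that the study names had differences within a wide spread. EREBP1, an ethylene response factor, was at 1.43 and 0.67 at 24 hours, against 1.003 and 0.715 at 12 hours on feature 4371, and had means of 1.43 at 24 hours and 1.24 at 12 hours on feature 4946, so it persisted on both. The high mobility group protein LOC4342129 had 1.67 and 0.64 at 24 hours, against 1.07 and 0.79 at 12 hours. The bHLH protein LOC4326959 had 0.55 and 0.17 at 24 hours, against 1.94 and 0.51 at 12 hours, a difference of -0.87 with a standard error of 0.52 and overlapping samples. ROS-bZIP1 was at -0.48 and -0.38 at 24 hours, against -0.41 and 0.61 at 12 hours. The Myb factor MYB4, called OsMyb4 in the study, was at -0.78 and -0.50 at 24 hours, against -0.55 and 0.69 at 12 hours. Among its other named genes, ATP sulfurylase LOC4334073 had means of 0.72 at 24 hours and 1.28 at 12 hours, the ATP synthase-like protein LOC4351612 differed by -0.38, the pfkB kinase LOC4326855 by -0.87 and the drought-induced DI19-5 by -0.27. The ripening regulated protein LOC4335602 and the anion transporter LOC4331617 had replicates more than 1 apart at both times.

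The study sorted its early-response genes into a rapid Group-I and a slow Group-II, and 99 features matched its list. The list was chosen by the study on these samples, so its counts are no independent evidence. In Group-I, 4 of 18 features met the 1.8-fold cut-off at both times, 6 at 12 hours only, 0 at 24 hours only and 8 at neither. In Group-II, 13 of 80 met it at both times, 37 at 12 hours only, 9 at 24 hours only and 21 at neither. One further feature is listed under both groups and met it at neither time. The median ratio in Group-II was 0.65 at 24 hours and 0.95 at 12 hours, with 58 of 80 features lower, and that in Group-I was 0.51 at 24 hours and 0.91 at 12 hours, with 15 of 18 lower. Without overlap, 27 of the Group-II features stood lower and 7 higher, against the 17.7% and 16.8% of all features given above.

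Across the 20 gene lists the median difference was below 0 in all but the methionine list and the kinase list, where it was 0.02 and 0.03. Named features as a whole leaned the same way: 472 of 777 stood lower, with a median of -0.10, against 3094 of 5992 and -0.02 over all features. The named features include the 99 of the study's list, chosen on these samples, of which 73 stood lower with a median of -0.38. How far that choice makes the lean was not tested. List medians are best read against the median of the named features, and the lists were drawn with earlier results of these data known. Beyond the lists above, nitrogen and hemoglobin genes had a median of -0.32 with 9 of 10 lower, the cold and dehydration list -0.31 with 11 of 16 lower, and the ubiquitin and proteasome list -0.26 with 18 of 28 lower. Defence and cell death genes stood at -0.24, cytoskeleton genes at -0.23, DNA replication and histone genes at -0.18, ribosome and translation genes at -0.16, antioxidant genes at -0.09, chaperones at -0.08 and transcription factors at -0.02, with 0 called in each. The last changed sign with the columns as deposited. Leaving out each sample in turn, the median ranged over -0.66 to -0.14 for nitrogen and hemoglobin, -0.38 to -0.12 for cold and dehydration, -0.25 to -0.05 for ubiquitin and proteasome, -0.11 to -0.03 for defence, -0.39 to -0.10 for DNA replication and histones, -0.45 to -0.17 for sugar and starch, -0.34 to -0.11 for the clock list and -0.23 to -0.16 for auxin. For ubiquitin and proteasome, defence and auxin the median with all samples lay below these ranges. The sign turned for the antioxidant, chaperone, ribosome, cytoskeleton, transcription factor and jasmonate lists, with medians up to 0.21, and for the methionine and kinase lists, with medians down to -0.23 and -0.06.

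Among the other leading members of these lists, polyubiquitin LOC4341860 had -0.16 and 0.22 at 24 hours, against 1.23 and 0.73 at 12 hours, and the histone gene H2B.2 had -1.22 and -0.43 at 24 hours, against 0.29 and 0.10 at 12 hours. The beta-tubulin TUB2 was at -0.04 and -0.05 at 24 hours, against 1.18 and 0.47 at 12 hours, and the actin AC3 was at 0.47 and 0.66 at 24 hours, against 2.01 and 0.84 at 12 hours. All 4 had non-overlapping samples, with differences of -0.95, -1.02, -0.87 and -0.86. The plastid glutamine synthetase GLN2, which refixes ammonium, had -0.41 and -0.34 at 24 hours, against 0.47 and 0.14 at 12 hours. The ascorbate peroxidase APX2, which removes hydrogen peroxide, was below control at both times, at -1.12 and -1.62 at 24 hours, against -0.49 and -0.81 at 12 hours. The metallothioneins MT2B and MT2C differed by -1.22 and -0.89. On the higher side the proteasome subunit OsRPN5 had 1.23 and 0.35 at 24 hours, against -0.01 and 0.01 at 12 hours.

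**Figure D4:**
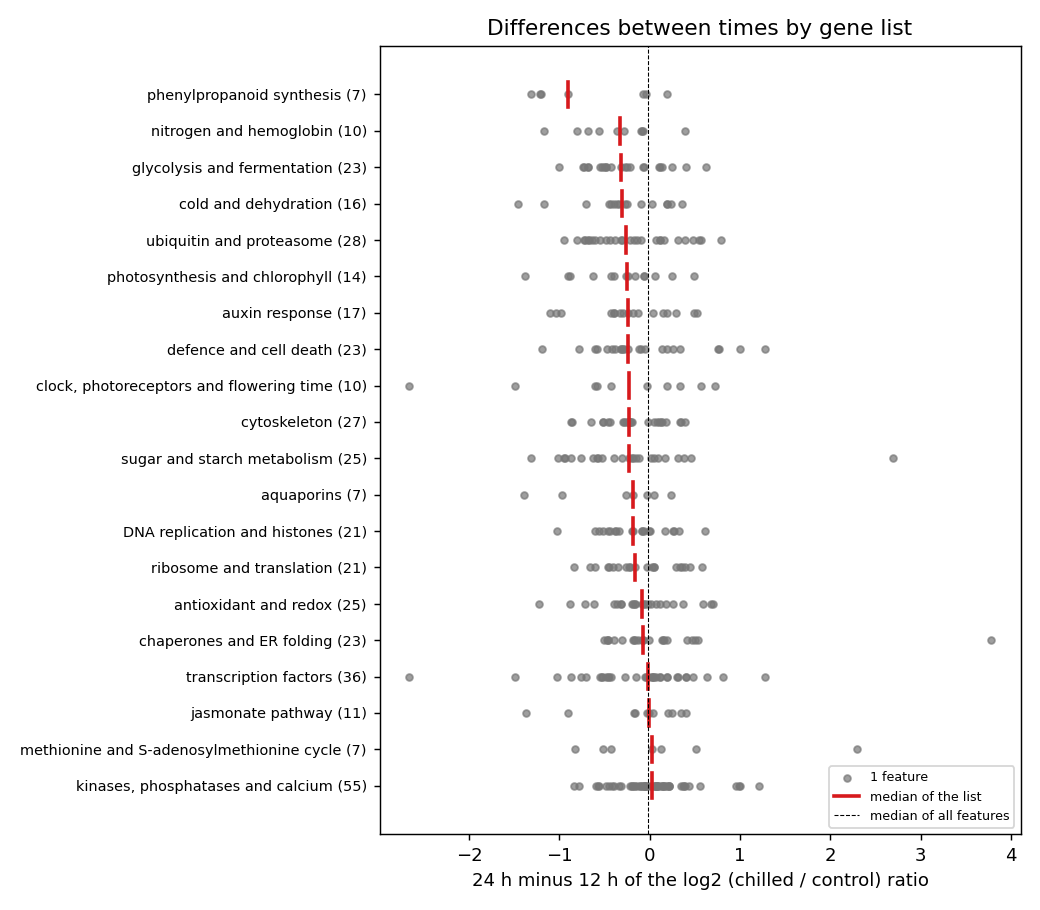
Difference in log2 ratio, 24 hours minus 12 hours (horizontal axis), of each feature in the 20 gene lists, with the number of features in brackets. Grey points are features, red bars are list medians and the dashed line is the median of all features, -0.02. The phenylpropanoid list lies furthest to the left at -0.90, and isolated points above 2 are ERDJ7, OsSPS3F and METK3.

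The smallest p-values fell on 4 features with no gene listed, which are named here after their values were seen. Feature 2278 was at -2.71 and -3.14 at 24 hours, against 0.91 and 0.81 at 12 hours. Features 4175, 375 and 4934 stood higher at 24 hours, with differences of 5.23, 3.24 and 2.84, and these are the 3 that limma called at 12 hours, where they were far below control. Their limma adjusted p for the difference between times was 0.122 to 0.137. On features 4175, 375 and 4934 only 5 of 8 spots carried a value, and each of their 12H values came from a single spot. Feature 2278 carried 7. Its 12H replicate 1 value is the mean of spots at -0.15 and 1.97, and its 24H replicate 1 value is a single spot. The 24H replicate 2 spots of feature 4175 read 1.67 and -0.40.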

How the data were processed

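The authors deposited 1 value table of log2 ratios, chilled (Cy3) over control (Cy5), from background-subtracted median intensities of the GenePix scan, processed in Acuity and, by their account, scaled to a mean ratio of 1 over all features. Replicates and duplicate spots were deposited as separate columns. The 8 columns of these times were used here and the other 12 only in alternatives. Each column was centred on its median and duplicate spots were averaged. Extreme values were kept. limma 3.58.1 in R 4.3.3 was fitted to the 5992 features with 4 values, with a mean per time (2 residual and 3.68 prior degrees of freedom). Signal over background is unknown, since intensities were not used here, and precision is limited by how few arrays there are. The fit was tested on simulated data.

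Of 6080 features, 4172 had 1 gene in the platform annotation, 97 several and 1811 none. Names came from the rice reference assembly ASM3414082v1 or, for 99 features matched by EST accession, from the study's gene list, giving 779 named features. The text names the 12 non-overlapping named genes with the largest difference in each direction, clock genes, genes that the study names, up to 3 leading members of each list and named features above 1.8-fold in all samples; others illustrate a list. Members and lists were chosen with earlier results of these data known. No script used the authors' fold changes. Alternatives covered centring, scaling, spot sets, missing spots, samples in the fit, the replicate block, robust fitting, spot averaging, the fold cut-off and leaving out each replicate. The promoter motif search was not run.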

Additional observations from a re-analysis of the deposited data

Results flagged for a closer look

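Among the 12 leading named genes in each direction, chosen for samples that do not overlap, 8 had features in which both samples of one time lay above the control and both samples of the other below it. Other named features outside these leading genes, such as those of H2B.2, IAA17, RBCS, TUB2, SAM2 and GLN2, met the same description. No share over all features is given beside this number, so it is no measure of how unusual these genes are. For the 8 the difference between times did not pass limma's test after adjustment, at an adjusted p of 0.934. The ratio was below control at 24 hours and above it at 12 hours for the water channel PIP1-3 (difference -1.40), the chlorophyll binding protein gene RCABP69 (-1.38), the phenylalanine ammonia lyase LOC4336415 (-1.21), the phospholipid transfer protein homolog LOC4350386 (-1.17) and the hemoglobin NSHB2 (-1.17). It was above control at 24 hours and below it at 12 hours for the kinase MPK6 (0.95), the S-adenosylmethionine synthase METK3 (2.30) and the co-chaperone ERDJ7 (3.78), the last measured on different spots at the 2 times. The side of the control depends on the centring and on any dye effect common to all slides. NSHB2 lay at -0.02 in 24H replicate 1, where centring had taken off column medians of 0.16 and 0.181. LOC4350386 lay at -0.046 in 24H replicate 2, where centring had taken off 0.02 and 0.088. Before centring neither of these values was below control. With 2 samples per time no test for a sample that stands apart from its group was possible.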

How the results depend on the processing

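Of 1355 checks on 85 named features under 16 settings, 1323 kept direction and side of the threshold. Most could not do otherwise: many of these features were chosen for samples that do not overlap, several settings change the spread and leave the difference as it is, and adjusted p-values of the named features were far above the threshold. The number is no measure of stability. The difference turned sign for LOC4335602 (0.016) and PRR95 (0.0078) with the second spot set alone, for LOC4331617 with columns scaled to one spread (-0.21) and the first spot set alone (-0.15), and for TBP-2 with scaled columns (-0.092), the second spot set (-0.0073) and linear averaging of spots (-0.037). Leaving out each replicate, a sign turned in AC2 (-1.31 to 0.016), DI19-5 (-0.71 to 0.17), DTE1 (-1.43 to 0.91), EREBP1 (-0.19 to 0.57), Ehd3 on feature 3116 (-0.19 to 0.85), IRE1 (-0.0084 to 1.07), LOC4331617 (-0.83 to 0.99), LOC4335602 (-0.96 to 0.42), LOC4342129 (-0.29 to 0.74), ferritin LOC4351264 (-0.020 to 0.39), PHOT2 (-0.92 to 0.061), PRR73 (-0.032 to 1.48), PRR95 (-0.31 to 0.24), PhyB (-0.099 to 0.49), RPA70A (-1.43 to 0.21), SUS1 (-2.33 to 0.30), TBP-2 (-0.23 to 0.26) and wsl3 (-0.47 to 0.055).

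With a cut-off of 1.5-fold the persisting class held 519 features, the fading class 402, and the stricter rule gave 408 higher and 274 lower. With 2-fold the persisting class held 118 and the stricter rule gave 125 higher and 68 lower. Asking for 1.8-fold in each replicate left 37 persisting, 104 fading and 166 beginning. Leaving out each replicate gave 135 to 254 persisting, 204 to 452 fading and 328 to 593 beginning. The stricter rule then gave 319 to 531 higher and 202 to 415 lower, as fewer samples must stand apart.

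Calls between the times were 1 higher and 1 lower with all 10 biological samples in the fit, and 0 to 6 higher and 0 to 2 lower when each replicate was left out, where the lone sample is assumed to vary like the others. At 12 hours 1 was called with the first spot set, 0 with the second and 0 with features of 8 complete spots. With 10 samples 7 were called, with 8 samples 8, and with spot sets kept apart 173. At 24 hours the counts were 64 with 10 samples, 8 with 8 samples and 158 with spot sets kept apart. The cause was not tested.

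The labels do not say that a replicate number ties samples across the times. Samples of the same number correlated at a Pearson's r of 0.493 and 0.435 across the times, and those of unlike numbers at 0.326 and 0.327. The deviations within the times correlated at 0.247. With only 2 pairs, whether samples of the same number share an effect was not tested. With the replicate block 3 features were called higher and 1 lower between the times, 180 at 12 hours and 318 at 24 hours. ERDJ7 was among the 3, at a limma adjusted p of 0.0382.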
